A study of Ciona savignyi with 56 samples.

Results

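The comparison was between the precursors of the primary notochord and those of the nerve cord in untreated 110-cell embryos of the ascidian Ciona savignyi. Notochord cells were those the authors placed in the class A8.5/6/13/14, and nerve cord cells were those in the classes A8.7/8 and A8.15/16, summed together. The 3 embryos were sequenced in 15 of the 56 entries that GEO lists for the series, and they held 317 cells, of which 42 belonged to the comparison (20 notochord and 22 nerve cord cells). The series as a whole follows 773 single blastomeres from the zygote onwards. Animals were collected from the sea at Jiaozhou Bay and their embryos were dechorionated. No group carried an allele or a transgene. The 110-cell and 64-cell embryos compared here received no drug, and a further group of 64-cell embryos, used in 1 paragraph, grew in U0126 at 2 µg/ml. U0126 blocks MEK, a kinase downstream of the receptors for fibroblast growth factor (FGF). How the authors assigned cells to classes is not given in the sources used here, so the use of some of the genes below for that assignment cannot be told apart from their difference between the classes.

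In ascidian embryos the vegetal A-line blastomeres divide into a notochord mother cell and a nerve cord mother cell, and FGF signalling through MEK and ERK is what turns the former towards notochord. The transcription factor Brachyury is the classical switch of the notochord programme in Ciona. The notochord forms the rod of the larval tail, and the nerve cord lies above it as the caudal part of the neural tube. A smaller part of the notochord, the secondary notochord, comes from the posterior blastomere B8.6. The deposited tables hold gene identifiers without names. Genes therefore appear as identifiers with no stated role, and at most 2 a direction are printed for each comparison.

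Embryos 1, 2 and 3 gave 8, 4 and 8 notochord cells and 8, 7 and 7 nerve cord cells. Embryo 2 also had 14 of the 20 cells that the authors marked as low quality at this stage. All 317 columns were counts of UMIs, the molecular tags that mark copies of 1 molecule. Notochord cells were shallower, with a median of 19142 UMIs (9522 to 50615) against 36866 (22973 to 105879) in nerve cord cells. The median per embryo was 21914 ± 6452 (SD, n = 3) in notochord and 36662 ± 2794 in nerve cord, lower in notochord in 3 of 3 embryos. An exact two-sided sign-flip test over 3 embryos cannot go below 0.25, which was the p here. Thinned to 10000 UMIs, which left out 1 notochord cell, a notochord cell showed 3455 ± 75.9 genes and a nerve cord cell 3384 ± 73.4 (means per embryo, n = 3). Notochord was higher in 3 of 3 embryos, again at the smallest p the exact test allows. Cells of both sides of an embryo occurred together in 8 libraries, and 1 library held cells of a pair of embryos. No 2 cells shared library and barcode.

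The identifiers given as markers were checked first, and neither of them marked its cells in every embryo. ENSCSAVG00000003890 stood at 0, 360 and 104 normalised CPM (the gene's UMIs relative to all UMIs of the sample, on the usual CPM scale and with TMM factors) in the notochord of embryos 1, 2 and 3, and at 0 in all 3 nerve cord samples. Only 3 of 20 notochord cells had a UMI of it, so the sides overlap in embryo 1. Over all notochord UMIs the level was at least 40.0-fold higher than the nerve cord's, taking 3 counts over the whole nerve cord as the floor (fitted log2 fold change 8.12, SE 1.30, adjusted p 3.49e-06 by edgeR's quasi-likelihood test). DESeq2 gave an adjusted p of 0.822 for this gene and limma-trend 0.193. ENSCSAVG00000003849 stood at 0, 25.7 and 106 normalised CPM in the nerve cord and at 0 in all 3 notochord samples. It had UMIs in 8 of 22 nerve cord cells and was too low for the test of the whole nerve cord. Within the nerve cord it was found mainly in A8.7/8, at 0, 74.4 and 165 CPM, and was 0, 0 and 10.6 CPM in A8.15/16. Against A8.7/8 alone it was lower in notochord (log2 fold change -7.19, SE 1.70, adjusted p 0.00775, edgeR). Embryo 1 thus held neither marker on either side.

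**Figure D1:**
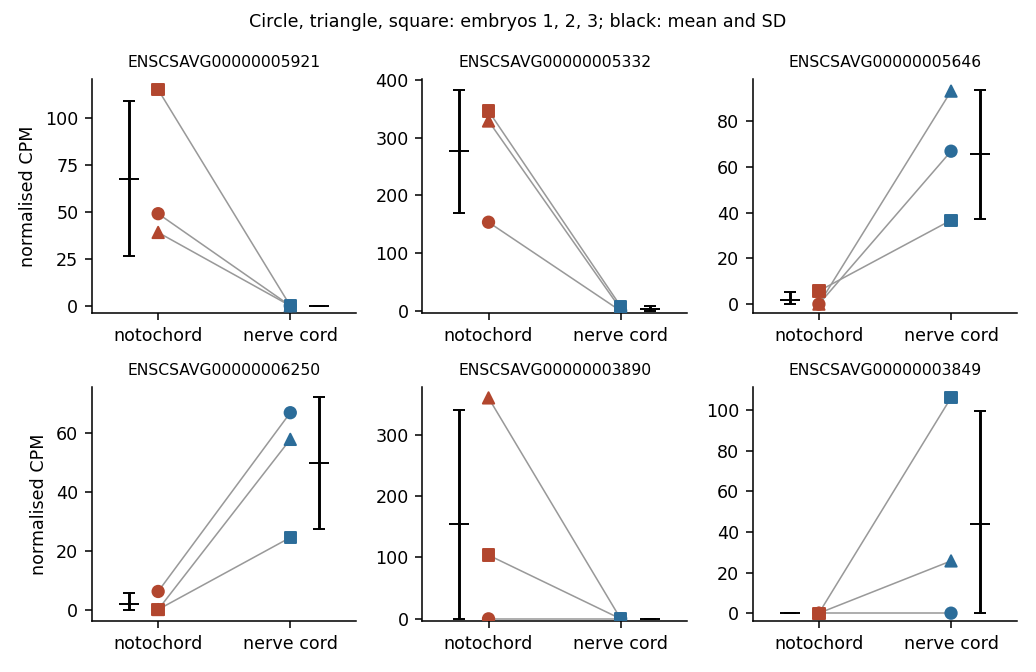
Normalised CPM (linear axis) of the 2 genes of largest fold change in each direction among called genes whose sides do not overlap, and of the 2 marker identifiers, in notochord and nerve cord of 110-cell embryos 1, 2 and 3 (circle, triangle, square; grey lines join the sides of an embryo; black bars give the mean and SD, cut off at 0). The 4 genes separate the sides in all 3 embryos, while both markers are at 0 on both sides of embryo 1.

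Whole sets of genes called higher in notochord separated the authors' classes, cell by cell, in every embryo. For this, genes were called from 2 embryos and summed in the single cells of the remaining one, as CPM of each cell's raw total. The remaining embryo was left out of the calls, but its cells kept the authors' classes. Whether these genes were used to assign the classes is not given, so the separation cannot be told apart from the assignment. In embryo 1, the 41 genes called higher in notochord in the other embryos took 4371 to 7165 CPM in the 8 notochord cells, against 1007 to 1785 in the 8 nerve cord cells. In embryo 2, 35 such genes took 5916 to 9925 CPM in the 4 notochord cells and 1589 to 2562 in the 7 nerve cord cells. In embryo 3, 22 such genes took 5540 to 9746 CPM in notochord cells and 263 to 825 in nerve cord cells. All 20 notochord cells were therefore above all nerve cord cells of their embryo. Some cells of neither side, low-quality cells included, were higher still, up to 8164, 13225 and 14469 CPM in embryos 1, 2 and 3. The reverse sets, genes higher in nerve cord outside the run of identifiers described below, were less clean. Embryo 1 had 7 of 8 nerve cord cells above all its notochord cells, embryo 2 had 6 of 7 and embryo 3 had 7 of 7. In embryo 1 these 13 genes ran from 1850 to 3243 CPM in nerve cord cells and from 787 to 2116 in notochord cells.

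**Figure D2:**
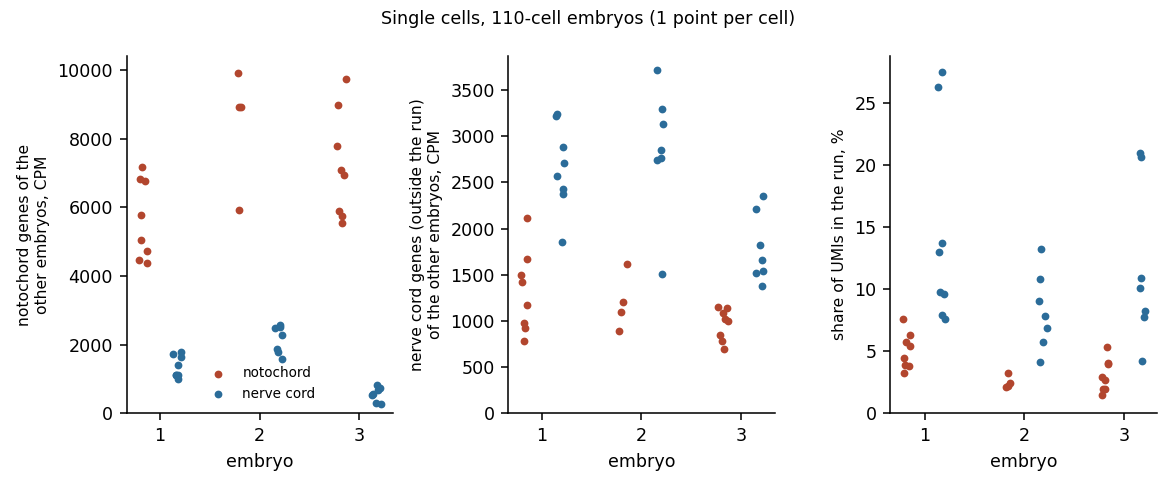
Single cells of 110-cell embryos 1, 2 and 3 (1 point per cell; red notochord, blue nerve cord). The left and middle axes give the CPM of genes called higher in notochord, or higher in nerve cord outside the run, in the other 2 embryos, and the right axis gives the percent of a cell's UMIs in the run of neighbouring identifiers. Notochord cells are above nerve cord cells without overlap on the left, and the sides overlap in places in the middle and on the right.

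Over all genes, 78 of 5242 tested (1.49%) differed between the sides at an adjusted p under 0.05 (edgeR's quasi-likelihood test on sums per embryo and class, with the embryo as a block). Of these, 43 were higher in notochord (0.82% of genes tested) and 35 higher in nerve cord (0.668%). The directions differed in median size. The genes higher in notochord had a median log2 fold change of 2.99 (0.65 to 8.12), and 21 of the 43 differed by a log2 of at least 3. The 8.12 was that of the marker ENSCSAVG00000003890, whose sides overlap in embryo 1. The genes higher in nerve cord fell into a run of neighbouring identifiers, 17 genes with a median of -2.02 (-2.50 to -1.50), and 18 others. The 18 had a median of -1.73 (-5.81 to -0.957), and 6 of them differed by a log2 of at least 3. The median log2 fold change over all tested genes was -0.01. Notochord held fewer UMIs (463605 against 869545), and the part of depth in these sizes was not tested. Every notochord sample was above every nerve cord sample in 38 of the 43, and the reverse held in 31 of the 35. Over all tested genes these shares were 4.2% and 4.64%. The count of 78 rested in part on embryo 3: without it, 46 genes were called, and 34 without the embryo as a block. With the 42 genes of the run left out, 43 genes were higher in notochord and 17 higher in nerve cord (0.321%), so that notochord held 71.7% of the calls in place of 55.1%.

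**Figure D3:**
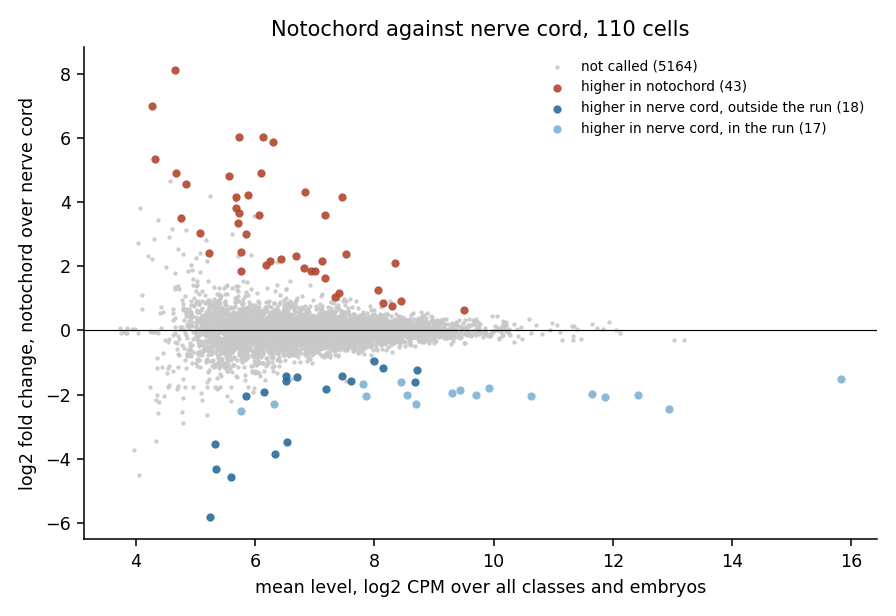
Log2 fold change of notochord over nerve cord at 110 cells for 5242 tested genes, against their mean level in log2 CPM over all classes. The 43 genes higher in notochord reach a log2 of 8.12, the value of the marker ENSCSAVG00000003890, whose sides overlap in embryo 1. The 18 genes higher in nerve cord outside the run reach -5.81, and the 17 called genes of the run lie near -2.02 across a wide range of levels.

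ENSCSAVG00000005921 led the genes that separated the sides in every embryo. It stood at 49.2, 39.1 and 115 normalised CPM in notochord (67.9 ± 41.4, SD, n = 3) and had no UMI in any of the 22 nerve cord cells. It was found in 12 of 20 notochord cells. The level in notochord was at least 20.6-fold higher, and the fit gave a log2 fold change of 6.98 (SE 1.26, adjusted p 6.52e-05, edgeR). DESeq2 gave an adjusted p of 0.861. Outside the contrast, its highest mean was that of the secondary notochord class B8.6, at 77.4 ± 59.3 CPM (SD, n = 3), and the endoderm class had 44.0 ± 22.8.

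ENSCSAVG00000005332 stood at 154, 329 and 346 normalised CPM in notochord (276 ± 106) and at 0, 3.22 and 8.2 CPM in nerve cord, without overlap. The nerve cord held 3 UMIs of it and the notochord 127, a ratio of 79.4 with a 95% counting interval of 26.6 to 390 (log2 fold change 6.02, SE 0.61, adjusted p 2.79e-12, edgeR). It was detected in 18 of 20 notochord and 3 of 22 nerve cord cells. It was not restricted to notochord: endoderm held 248 ± 54.6 CPM and B8.6 109 ± 50.2.

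Of the genes higher in nerve cord without overlap, ENSCSAVG00000005646 stood at 67.0, 93.3 and 36.8 normalised CPM in nerve cord and at 0, 0 and 5.77 in notochord. A single UMI was found among the notochord cells, against 55 in nerve cord (ratio 29.3, 95% counting interval 5.05 to 1180; log2 fold change -4.57, SE 0.99, adjusted p 0.0014, edgeR). The call was lost without embryo 2 (adjusted p 0.0864), with limma-trend (0.105) and against A8.7/8 alone, where the gene stood at 74.0, 9.30 and 13.2 CPM (log2 fold change -3.60, adjusted p 0.185). The nerve cord was not its peak, since the muscle class B8.7/8 had a mean of 98.6 CPM. ENSCSAVG00000006250 stood at 67.0, 57.9 and 24.5 CPM in nerve cord and at 6.15, 0 and 0 in notochord (log2 fold change -4.31, SE 0.99, adjusted p 0.00346, edgeR). Its call was lost without embryo 1 (adjusted p 0.0673), without embryo 2 (0.151), with both sides thinned to equal totals (0.104), with limma-trend (0.205) and without the embryo as a block (0.0807). Its highest mean, 68.7 CPM, was in the anterior neural class a8.17/18/19/20/25/26.

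The levels of the called genes in the other classes of the same embryos describe how far each set is particular to a side. The notochord and nerve cord samples enter these values again, so they are given without a test. Of the 43 genes higher in notochord, 14 had their highest mean in notochord and 14 in B8.6, the secondary notochord, where 5.49% and 12.5% of all tested genes peaked. B8.6 has only 5 cells in the 3 embryos, so its means are the less precise. The median of the 43 was 195 CPM in notochord, 180 in B8.6, 132 in the endoderm class and 67.7 in A7.6, the trunk lateral cells, against 18.5 in nerve cord. B8.6 was above nerve cord in 41 of the 43, against 39.4% of all tested genes. In 21 of the 43 every embryo was, against 141 of all 5242 tested genes. Endoderm was above nerve cord in 40 of the 43, against 49.7% of all tested genes. In 32 of the 43 every embryo was, against 243 of all 5242. Of the 43, 20 (46.5%) had a higher mean in B8.6 than in notochord, near the 40.4% of all tested genes. In endoderm 9 (20.9%) had a higher mean than in notochord, against 50.3% of all tested genes. The genes were chosen for being lower in nerve cord than in notochord, which favours other classes being above nerve cord too.

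The 18 nerve cord genes outside the run had a flatter pattern. Of the 18, 3 (16.7%) peaked in nerve cord and 4 (22.2%) in anterior epidermis, where 2.71% and 1.89% of all tested genes peaked. In each muscle class 3 of the 18 peaked (16.7%). Of all tested genes, 10.3% peaked in B8.15/16 and 6.37% in B8.7/8. Their median was 152 CPM in nerve cord, 138 in b8.17-20 (posterior neural cells), 129 in anterior epidermis, 106 in B8.7/8 and 93.1 in the anterior neural class, against 47.6 in notochord, 29.0 in B8.6 and 24.5 in endoderm. None of the 18 had a higher mean in B8.6 than in nerve cord, and 1 had in endoderm. Of all tested genes, 39.4% and 49.7% had. Compared with notochord, 16 of the 18 were higher in the anterior neural class, where 51.7% of all tested genes were. The number was 14 in B8.7/8, 13 in b8.17-20 and in each epidermis class, and 10 in B8.6 and in endoderm. In these classes 40.4% to 51.1% of all tested genes were higher than in notochord. The 18 were chosen for being lower in notochord than in nerve cord, which favours other classes being above notochord too.

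**Figure D4:**
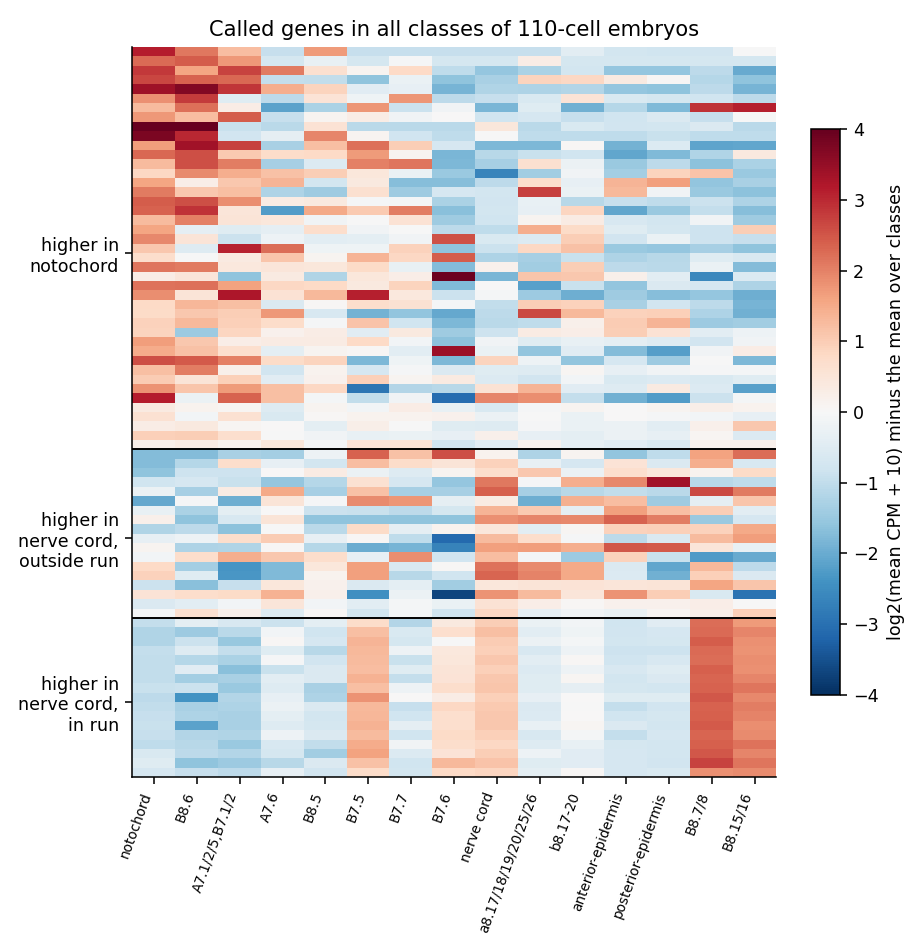
The 78 called genes (rows, ordered by size of the fold change within each set) in the 15 classes of 110-cell embryos (columns), as log2 of mean CPM + 10 minus the gene's mean over classes. The 43 genes higher in notochord are also high in B8.6 and in part in the endoderm class A7.1/2/5,B7.1/2, and the 17 genes of the run are highest in B8.7/8 or B8.15/16, which are muscle classes.

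The run consists of 42 genes numbered no more than 30 away from ENSCSAVG00000012509, and was known from earlier results of these data. It took 5.08%, 2.67% and 3.59% of the UMIs of notochord in embryos 1, 2 and 3, and 14.4%, 7.64% and 11.7% of those of nerve cord. Notochord minus nerve cord was -7.46 ± 2.25 percentage points (SD, n = 3), negative in 3 of 3 embryos (exact sign-flip p = 0.25, two-sided). Single cells ran from 1.45% to 7.63% in notochord and from 4.15% to 27.5% in nerve cord, so the sides overlap. Within the nerve cord, A8.7/8 held 10.0 ± 1.21% and A8.15/16 13.2 ± 5.82%, and B8.6 held 3.5 ± 2.33%. All 17 called genes of the run were highest in a muscle class, 16 in B8.7/8 and 1 in B8.15/16. Of all tested genes, 6.37% and 10.3% were highest in these classes. What the run encodes is not given in the files.

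The nerve cord classes were also set against the notochord one by one. The notochord samples are the same in both, so the values are given side by side. Against A8.7/8, 70 of 5159 genes were called (1.36%), 40 higher in notochord (0.775%) and 30 higher in nerve cord (0.582%). Against A8.15/16, 69 were called (1.34%), 34 (0.659%) and 35 (0.678%) in these directions. The median of the 43 notochord genes was 3.14 against A8.7/8 and 2.89 against A8.15/16, and that of all tested genes was 0.00350 and -0.0138. Among called genes whose sides do not overlap, ENSCSAVG00000005921 had the largest fold change against A8.7/8 (at least 9.90-fold higher, adjusted p 0.00281, edgeR). It was followed by ENSCSAVG00000010273, with 36.8, 31.1 and 98.2 CPM in notochord and no UMI in 11 cells of A8.7/8 (at least 8.10-fold higher, adjusted p 0.00393). In A8.15/16 the latter stood at 8.44, 19.7 and 0 CPM (adjusted p 0.163). Its highest mean among all classes was in B8.6, at 99.7 ± 46.7 CPM (SD, n = 3). Its call against the whole nerve cord was lost in 5 further settings, among them without embryo 3 (adjusted p 0.924).

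Of the nerve cord classes, ENSCSAVG00000000279 was mainly found in A8.7/8. It had 74.0, 46.5 and 461 CPM there, 16.9, 0 and 0 in A8.15/16 and 12.3, 7.77 and 0 in notochord. It was lower in notochord than in A8.7/8 (log2 fold change -4.68, SE 0.76, adjusted p 5.13e-06, edgeR), and was highest of all classes in posterior epidermis, at 289 CPM. Its contrast with the whole nerve cord had an adjusted p of 1 without embryo 3, 0.291 with DESeq2, 0.279 with limma-trend and 0.115 without the embryo as a block. The second of this direction against A8.7/8 was ENSCSAVG00000006250, described above.

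Against A8.15/16, ENSCSAVG00000007054 (49.1, 31.1 and 185 CPM in notochord) and ENSCSAVG00000003097 (85.9, 38.8 and 92.4) had no UMI in 11 cells of that class. They were at least 14.3-fold and 11.4-fold higher in notochord (adjusted p 0.00219 and 0.000331, edgeR). In A8.7/8 the former stood at 0, 27.9 and 13.2 CPM (adjusted p 0.123) and the latter at 7.4, 9.30 and 6.59 (adjusted p 0.0247). Among all classes, the former had its highest mean in posterior epidermis, at 92.6 ± 91.7 CPM, and the latter in B8.6, at 196 ± 226 (SD, n = 3). Against the whole nerve cord, the call of ENSCSAVG00000007054 was lost with DESeq2 (0.332), limma-trend (0.666), no block (0.195) and without embryo 3 (0.587), and that of ENSCSAVG00000003097 with limma-trend (0.115). ENSCSAVG00000003892 showed the reverse of ENSCSAVG00000000279. It stood at 76.0, 93.8 and 148 CPM in A8.15/16, at 0 in all 3 samples of A8.7/8 and at 0, 0 and 11.6 in notochord. It was lower in notochord than in A8.15/16 (log2 fold change -4.45, SE 0.96, adjusted p 0.00187, edgeR), and its contrast with the whole nerve cord had an adjusted p of 0.0553. Its highest mean, 97.1 CPM, was in b8.17-20. Of the called genes without overlap, ENSCSAVG00000005646 had the largest difference in this direction (59.1, 138 and 74.1 CPM in A8.15/16; log2 fold change -5.07, SE 1.00, adjusted p 0.00033, edgeR).

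The same contrast was measured 1 division earlier, in 3 other embryos, between the notochord class A7.3/7 (8 cells) and the nerve cord class A7.4/8 (11 cells). It gave 38 called genes of 5162 (0.736%), 16 higher in notochord (0.31%) and 22 higher in nerve cord (0.426%). Embryo 3 of this stage gave a single notochord cell. Of the 16, 11 were also called higher in notochord at 110 cells, which is 68.8% of the 64-cell list and 25.6% of the 110-cell list. Of all 5162 genes tested at 64 cells, 0.697% were called higher in notochord and 0.620% higher in nerve cord at 110 cells. The median log2 fold change of the 16 was 3.80 at 64 cells and 2.27 at 110 cells. The median of all genes tested at 64 cells was -0.01 at 110 cells. Of the 22 nerve cord genes, 17 lay in the run, and 15 of these 17 were called again. The 5 nerve cord genes outside the run were called again in 5 of 5 cases, among 18 at 110 cells.

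Read the other way, 36 of the 43 notochord genes of the 110-cell stage passed the filter on low counts at 64 cells. Their median contrast there was 1.5, and 31 of the 36 were above 0, where 47.6% of all tested genes were. The 15 nerve cord genes outside the run that passed had a median of -1.26, with 11 of 15 below 0. The 17 genes of the run had a median of -2.63 at 64 cells, with 17 of 17 below 0, and -2.02 at 110 cells.

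ENSCSAVG00000003189 and ENSCSAVG00000002247 had the largest fold changes on the notochord side at 64 cells among called genes without overlap. The former stood at 210, 141 and 190 CPM in notochord, in 8 of 8 cells, with no UMI in 11 nerve cord cells (at least 40.5-fold higher, adjusted p 5.89e-07, edgeR). The latter stood at 175, 157 and 114 CPM, also in 8 of 8 cells, with none in nerve cord (at least 37.6-fold higher, adjusted p 8.89e-06). DESeq2 gave an adjusted p of 0.937 for the latter. At 110 cells both peaked in notochord among all classes, with means of 261 and 521 CPM, followed by B8.6 with 151 and 395, while endoderm had 1.76 and 1.35. They were again higher in notochord at that stage (log2 fold change 4.55 and 4.8, adjusted p 1.11e-07 and 2.55e-10, edgeR). On the nerve cord side, ENSCSAVG00000005021 stood at 163, 120 and 78.9 CPM in nerve cord and at 0, 0 and 38 in notochord at 64 cells (adjusted p 0.00307, edgeR), and was again higher in nerve cord at 110 cells (log2 fold change -3.48, adjusted p 0.003). Its adjusted p at 64 cells was 0.182 without embryo 1, 0.332 without embryo 2 and 0.123 without the embryo as a block. Its highest mean at 110 cells was 252 CPM, in the class B7.5. ENSCSAVG00000012518, a gene of the run, stood at 74.2, 47.3 and 146 CPM in nerve cord and at 0, 7.86 and 0 in notochord (adjusted p 0.0444, edgeR). Its adjusted p was 0.0867 to 0.500 with 1 embryo of this stage left out, 0.201 with DESeq2 and 0.163 without the embryo as a block. At 110 cells its highest mean was 247 CPM, in B8.7/8.

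The difference between the stages was tested as the interaction of side and stage. It was past the threshold for 6 of 4534 genes (0.132%), 3 with a higher and 3 with a lower contrast at 110 cells, and 243 genes had an unadjusted p under 0.05. DESeq2 called 3, all with a lower contrast at 110 cells and none with a higher one. A gene that was not called is not shown to have the same contrast at both stages.

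ENSCSAVG00000003020 had the largest drop among the 6 genes. At 64 cells it stood at 385, 94.3 and 608 CPM in notochord and at 0, 10.9 and 0 in nerve cord, without overlap (log2 fold change 5.72, adjusted p 2.24e-09, edgeR). At 110 cells it stood at 148, 117 and 156 in notochord and at 209, 219 and 163 in nerve cord (log2 fold change -0.49, adjusted p 1). The contrast dropped by 6.28 on the log2 scale (SE 0.67, adjusted p 2.58e-17). The nerve cord level at 110 cells came from A8.15/16, with 447, 336 and 392 CPM, whereas A8.7/8 had 0, 0 and 19.8. Against A8.7/8 alone the gene was still higher in notochord (log2 fold change 4.16, adjusted p 0.0014, edgeR). Its highest mean among all classes at 110 cells was in B8.6, at 874 ± 855 CPM (SD, n = 3).

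ENSCSAVG00000002225 went from a contrast of 0.83 at 64 cells to -3.53 at 110 cells (difference -4.56, SE 0.91, adjusted p 0.000781, edgeR). At 110 cells it stood at 122, 103 and 139 CPM in nerve cord and at 0, 23.5 and 11.5 in notochord. At 64 cells it stood at 46.6, 47.1 and 228 in notochord and at 29.7, 21.8 and 78.9 in nerve cord, where the sides overlap. Its highest mean at 110 cells was 147 CPM, in B8.7/8.

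ENSCSAVG00000005332, one of the leading notochord genes at 110 cells, was nearly absent from both sides at 64 cells, with 11.7, 0 and 0 CPM in notochord and 4.94, 14.6 and 0 in nerve cord (difference 7.01, SE 1.62, adjusted p 0.0109, edgeR). Leaving out 110-cell embryo 2 or 3 or 64-cell embryo 2 ended this call (adjusted p 0.101, 0.0504 and 0.977), as did DESeq2 (0.0754). ENSCSAVG00000004839 stood at 191, 251 and 312 CPM in notochord against 59.1, 86.8 and 65.3 in nerve cord at 110 cells, and at 58.3, 78.6 and 0 against 114, 116 and 85.0 at 64 cells. Its contrast was higher at 110 cells by 2.71 (SE 0.57, adjusted p 0.00226, edgeR), but the call was lost without 110-cell embryo 3 (adjusted p 0.114) and with DESeq2 (0.0920). Its highest mean at 110 cells was in B8.6, at 455 ± 540 CPM (SD, n = 3).

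**Figure D5:**
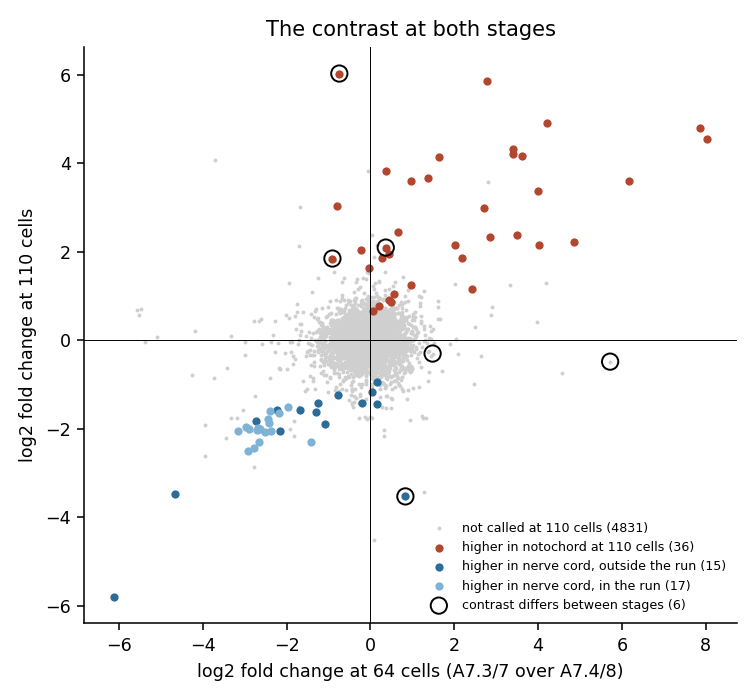
Log2 fold change of notochord over nerve cord at 64 cells (x) and at 110 cells (y) for the genes tested at both stages, with the 110-cell calls in colour and the 6 genes whose contrast differs between the stages ringed. Most of the 36 notochord genes lie in the upper right, and the 17 called genes of the run lie together in the lower left.

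In the 2 embryos with U0126, whose columns are read counts, the cells in the notochord position (A7.3/7) and in the nerve cord position (A7.4/8) were compared as values only. The 16 notochord genes of the untreated 64-cell embryos had a median contrast, as log2 of CPM + 10, of 3.06, 3.07 and 2.18 in the 3 untreated embryos and of 0 and 0 in the treated ones, where the median over the genes tested at 110 cells was 0.24 and 0.31. In the treated embryos 7 and 6 of the 16 had no read on either side and so a contrast of exactly 0, 4 and 6 were above 0, and 5 and 4 were below, so a median of 0 does not measure equal levels. The 17 genes of the run called at 64 cells kept their direction in 17 of 17 cases in both treated embryos, with medians of -1.58 and -1.83. The 5 other nerve cord genes had medians of -0.34 and -0.59. The difference between treated and untreated embryos was not tested here, and the kind of count differs between them.

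The called genes were also followed in the sums of whole embryos. Of the 43 notochord genes, 14 reached 10 CPM in 8-cell embryos, 15 in 16-cell and 19 in 32-cell embryos (all in reads), 35 in 64-cell and 43 in 110-cell embryos (in UMIs). No read was found at the 8-cell stage for 12 of them. The set's median level was 0.506 CPM in 8-cell, 4.88 in 32-cell and 61.1 in 110-cell embryos. For the 18 nerve cord genes outside the run the count at 10 CPM or more was 5, 8, 11, 18 and 18. Of all 5242 tested genes, 94.96% reached 10 CPM in 8-cell embryos and 99.6% in 110-cell embryos. The run went the other way, from a median of 2238 CPM for its 17 genes at the 8-cell stage to 556 at the 110-cell stage. The genes were called at 110 cells, so their high level there is in part fixed by the choice, and steps between reads and UMIs hold the kind of count as well as the stage.

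Some notochord genes had neighbouring identifiers. Of the 43, 7 (16.3%) had another of the 43 within 10 identifiers, where 6.41% of all tested genes had one of the 43 that near. Among the 18 nerve cord genes outside the run, 1 did. Whether near identifiers stand for near genes or near-identical copies is not given in the files, and near-identical genes could share reads.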

How the data were processed

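Per the labels' protocols, single blastomeres went through a Smart-seq2 variant whose primers carry barcodes: polyadenylated RNA was copied, amplified, pooled by stage and tagmented. The authors deposited a matrix of counts for 12172 genes, with no normalization, and a cell table with library, embryo, class, reads and UMIs. Column sums equalled the table's UMI number in all 317 cells of the 110-cell and 179 of the untreated 64-cell embryos, and its read number in the 8-, 16- and 32-cell and U0126 embryos. CASAVA 1.8, DESeq2 and Seurat are listed, per the submitters' processing notes, with no role. Not given in the sources used here: aligner, build, annotation and how classes were assigned. Columns of the 1-, 2- and 4-cell stages (30) were not used.

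Counts were summed per embryo and class, without cells marked low quality, and fitted with edgeR 4.0.16 in R 4.3.3 (all classes of the stage, both nerve cord classes as 1, TMM, filterByExpr, quasi-likelihood test, embryo as block, Benjamini-Hochberg over all tested genes at 0.05). The replicate is the embryo, numbered within a stage, and sides are paired because they come from the same embryo. Fold bounds put 3 counts over a side in place of 0. Intervals are exact conditional binomial ones at 95%, and intervals and bounds cover counting error only. Levels are CPM scaled by TMM, except the whole-embryo, U0126 and single-cell values, which are CPM of raw totals. Fold bounds and count ratios also use raw totals. The sets for single cells were called without the embryo they were measured in. Each embryo was left out in turn, and RLE scaling, other filters, other sums, limma 3.58.1 and DESeq2 1.42.0 were tried. Python 3.11.15, numpy 2.4.6, pandas 2.3.3 and matplotlib 3.10.9 made tables and figures. The fit was tested on simulated data.

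Named genes passed an adjusted p of 0.05 with every embryo of one side above every embryo of the other (for the difference between stages, every contrast of one stage above every contrast of the other), and the first 2 by fold change in each direction were taken for each comparison, with the 2 marker identifiers added. The comparison, its markers and the run were chosen with earlier results of these data known. The sums over single cells of left-out embryos and the levels over stages were added with the data in view.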

Additional observations from a re-analysis of the deposited data

Results flagged for a closer look

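The contrast of notochord over nerve cord differed between the 64-cell and the 110-cell stage, by the test of the interaction, for 4 of the named genes. It was higher at 110 cells by 7.01 on the log2 scale for ENSCSAVG00000005332 and by 2.71 for ENSCSAVG00000004839. Neither call held with DESeq2 (adjusted p 0.0754 and 0.0920), and left-out embryos raised the adjusted p up to 0.977 and 0.114. It was lower at 110 cells for ENSCSAVG00000003020, with a difference of -6.28, and for ENSCSAVG00000002225, with -4.56. For ENSCSAVG00000003020 the nerve cord classes differ at 110 cells, with a log2 fold change of notochord over A8.7/8 of 4.16 and over A8.15/16 of -1.47 (adjusted p 0.0014 and 0.0564, edgeR). Groups of 3 embryos are too small to look for a single sample that stands apart.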

How the results depend on the processing

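At 110 cells the count of 78 genes was 20 with limma-trend, 34 with no replicate block (the embryo left out of the model) and 37 when tested against a log2 fold change of 1. It was 46 to 69 with 1 embryo left out. It stayed between 60 and 81 with RLE scaling, any count, DESeq2, only the 2 sides, the run left out, each nerve cord class alone and thinning to equal totals. With alternatives added after seeing the data it was 83 (cells of at least 10000 UMIs), 71 (only libraries with cells of both sides) and 88 (without the library of 2 embryos). At 64 cells the count of 38 was 19 with no replicate block, 21 without the run, 25 without embryo 1, and 25 to 34 with 1 embryo left out. The 6 genes of the difference between stages were 3 with DESeq2 and 4 to 9 with 1 embryo left out. Without 110-cell embryo 3 none of 4 had a higher contrast at 110 cells. Genes per thinned cell differed by 93.8 at 5000 and by 80.8 at 20000 UMIs, beside 70.7 at 10000. At 20000 UMIs only 4, 2 and 2 notochord cells of embryos 1, 2 and 3 remained, and the SD of the difference was 65.1 (n = 3). The run's share differed by -8.71 to -6.52 points and the median UMIs by -18170 to -10801 with 1 embryo left out. For single named genes, 169 values kept their direction and side of the threshold, 42 kept the direction and lost the call, and 3 gained it. The contrast of ENSCSAVG00000000279 was 0.11 against A8.15/16 alone, and that of ENSCSAVG00000003892 was 3.11 against A8.7/8 alone. Both are opposite in sign to the contrast with the whole nerve cord, but neither was called (adjusted p 0.999 and 0.913, edgeR). The notochord held only 3 and 2 UMIs of these genes, so their direction is not settled. In these settings a nerve cord class is left out, and the values of both classes are given with the genes. The cause of the changes between settings was not tested. Precision is limited by 3 embryos and by 125545 to 319399 UMIs a side and embryo.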
